A study of Homo sapiens with 12 samples.

Results

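A set of 50 genes, splicing factors and the kinases that act on them, was followed by name through an RNA-seq experiment in MDA-MB-231 cells, an established human line from a triple-negative breast cancer. They are 50 of the 60664 genes in the deposited table, each was found once by its symbol, and all 50 passed the filter on low values in every comparison. They fall into 12 SR and TRA2 proteins, 6 CLK and SRPK kinases, 13 hnRNP and PTB proteins, 8 factors of the U2 snRNP and the 3 prime splice site, 6 RBM proteins with CIRBP, and 5 proteins of the MBNL, CELF, RBFOX and QKI families. They were chosen by name, for what they are known to do, and with earlier results of these data known.

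Introns are removed by the spliceosome, in which U2AF and the U2 snRNP recognise the 3 prime end of an intron and its branch point. SR proteins bind exons and mostly favour their inclusion, hnRNP proteins often oppose it, and the MBNL, CELF, RBFOX, QKI and RBM proteins tune particular exons in particular tissues. SRPK and CLK kinases phosphorylate the arginine-serine repeats of SR proteins, which sets where in the cell these proteins sit and how active they are. *CCAR2*, which encodes DBC1, forms the DBIRD complex with ZNF326, a complex that couples transcription by RNA polymerase II with splicing.

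RNA was taken from wildtype (WT) cells in normoxia, from WT cells kept in hypoxia for 24 hr, and from *CCAR2* knockout (KO) cells in normoxia, with 4 libraries in each group and 12 in all. According to the methods, the KO was made with a lentiviral CRISPR vector carrying 1 *CCAR2* guide, and whether the cells were 1 clone or a pool is not given in the sources used here. The labels number the libraries but do not say that they came from separate cultures, so p-values measure the spread between libraries, which may be technical. Values were compared as CPM, the deposited estimated counts scaled by edgeR to the TMM-adjusted sum of each library, and the term rose or fell is used for an adjusted p under 0.05 in edgeR's quasi-likelihood test over all genes. A gene is called where its log2 fold change is also at least 0.5 in size.

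The targeted gene was checked first. *CCAR2* stood at 146 ± 3.11 CPM (SD, n = 4) in WT normoxia and at 57.8 ± 2.81 CPM in KO cells, a log2 fold change of -1.34 ± 0.042 SE, adjusted p = 2.14e-09. Its RNA was thus lower in every KO library but still present, and in hypoxia it stood at 149 ± 4.95 CPM, with a log2 fold change of 0.02 ± 0.046 SE, adjusted p = 0.802. Its partner *ZNF326* fell in hypoxia (-0.36 ± 0.068 SE, adjusted p = 0.00331) and had a log2 fold change of -0.05 in KO cells (adjusted p = 0.550).

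The cell label was set against marker genes. *VIM*, *CD44* and *MSN*, which are high in mesenchymal cells, and *EGFR*, which is high in basal-like breast cancer cells, had means of at least 323 CPM in each group, while *ESR1*, *PGR* and *CDH1* had means of at most 0.307 CPM. *EPCAM* was present at 14.4 ± 0.533 CPM in WT normoxia. Of the markers of blood and endothelial cells, *PECAM1* was the highest, at 2.56 ± 0.514 CPM in WT normoxia and 5.51 ± 0.316 CPM in KO cells, and the other 6 had means under 1 CPM, with *CD3E* at 0 in the WT normoxia and KO libraries. The sum of deposited values per library was between 68599412 and 213743693, and hypoxia replicates 1 and 2 and KO replicate 2 had sums under 100000000 and stood apart from the rest of their groups in a principal component analysis. Results that rest on these 3 libraries are given with and without them.

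In normoxic WT cells the hnRNP genes were the most abundant and the CLK genes among the least. Levels of different genes were compared per kb of merged exon. *HNRNPA1*, an hnRNP that binds splicing silencers, was the highest at 262 ± 17.9 CPM per kb (SD, n = 4), followed by *HNRNPK* at 165 ± 1.43 and *SRSF2* at 126 ± 6.25 CPM per kb. All of *CLK1*, *CLK2*, *CLK3* and *CLK4* were between 1.75 and 6.48 CPM per kb, while *SRPK1* reached 38.5 ± 1.67 and *SRPK2* 7.99 ± 0.440 CPM per kb. The lowest was *PTBP2*, the neuronal counterpart of *PTBP1*, at 1.20 ± 0.0577 against 122 ± 2.88 CPM per kb. The merged exons include every annotated isoform, so a gene with many rarely used exons, such as *CLK3* with 20443 bases, is placed low on this scale. The SD of a gene was a median of 4.67% of its mean in WT normoxia, 5.41% in hypoxia and 3.30% in KO cells, and the widest was 13.1%, for *CELF1* in hypoxia.

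**Figure D1:**
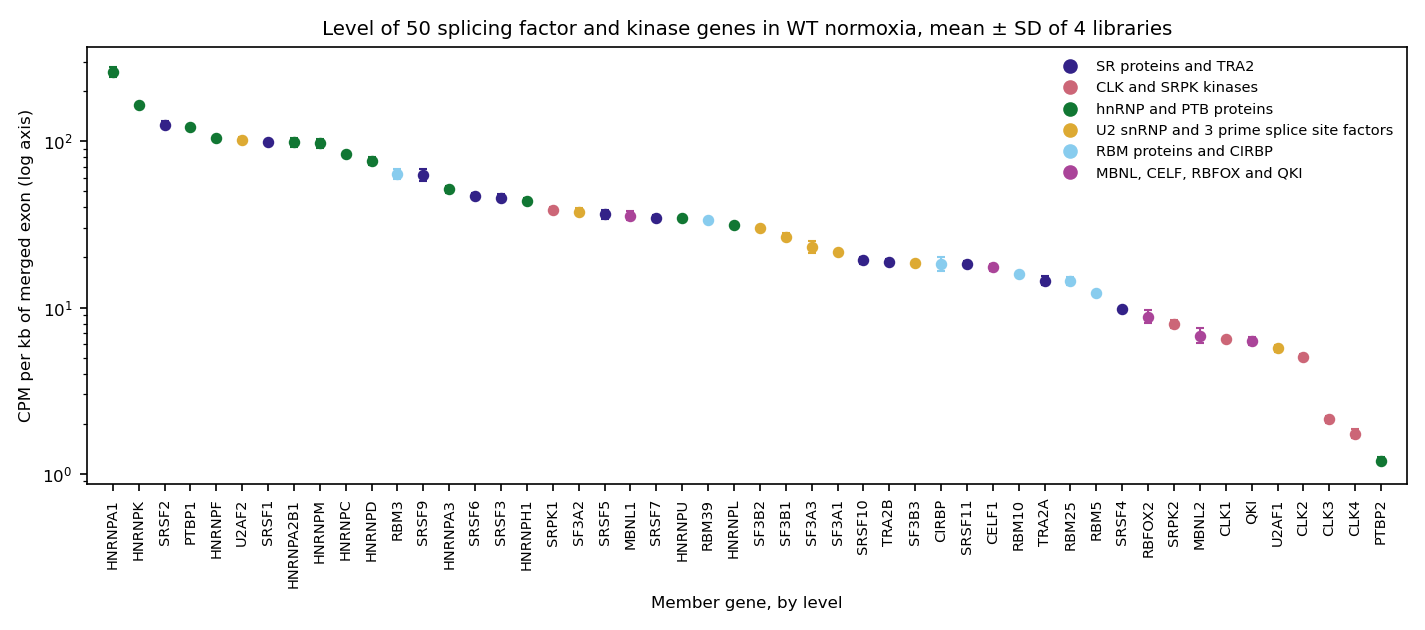
Level of the 50 genes in WT normoxia in CPM per kb of merged exon (vertical log axis), ordered from high to low and coloured by family. Points are means of 4 libraries and bars are SD. The hnRNP genes fill most of the upper end and the 4 CLK genes lie at the lower end, between 1.75 and 6.48 CPM per kb.

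Under hypoxia, 15 of the 50 genes fell, 6 rose and 29 did not pass the test. Among all 21776 genes tested, 12% fell and 11.6% rose, and among the 10654 abundant ones (a mean deposited value of at least 1000) 22.4% fell and 13.8% rose, against 30% and 12% of the members. A single member was called higher, *CLK2*, and 1 was called lower, *MBNL1*, beside 5.83% and 1.43% of all genes. The median log2 fold change of the members was -0.13 and that of all genes 0.01. In 17 members every hypoxic library lay under every normoxic one and in 7 above, beside 12.7% and 13.7% of all genes. With 4 libraries against 4, such a separation gives the smallest p that an exact two-sided permutation test allows, 0.0286. Without the libraries of low sum, 20 members fell, 14 of them among the 15, and 4 rose, all among the 6. Of all genes 13.1% then fell and 10.9% rose. *HNRNPD*, *CLK3* and *SRSF6* did not pass in that fit. Without hypoxia replicate 2 alone 23 fell, beside 16.2% of all genes.

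In KO cells, 18 of the 50 genes fell and none rose by edgeR, while 15.4% of all 21410 genes fell and 14.9% rose. Among the 10597 abundant genes, 26.7% fell and 19.7% rose. Before adjustment, 24 members were lower and 4 higher at a p under 0.05, and after it 1 member was higher by DESeq2 and 0 by limma-voom. No member was called in either direction by edgeR, beside 6.73% of all genes higher and 2.94% lower. Each decrease was thus under 0.5 on the log2 scale. The median was -0.10 for the members and 0.01 for all genes. The groups did not overlap in 20 members that were lower and in 2 that were higher in KO cells, beside 15.2% and 15.6% of all genes. Without the library of low sum, 16 members fell and 0 rose, beside 13.7% and 13.3% of all genes. Without KO replicate 3, 10 fell, beside 13.4% of all genes, and without KO replicate 4, 11 fell, beside 12.6%. When WT replicate 1 or 4 or KO replicate 1 was left out, 1 rose, beside 13.1% to 14.9% of all genes.

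The 2 comparisons share the WT normoxia libraries, so their values are set side by side only. Both in hypoxia and in KO cells 6 members fell and 19 passed neither test. The shares of all genes that did so were not counted, so these counts describe the members only. *CLK1* and *RBM10* rose in hypoxia and fell in KO cells. KO cells compared directly with hypoxic cells, which is the test of the difference of the 2 effects, had 11 members higher and 14 lower, beside 17.1% and 17.8% of all 21158 genes. A single member was called in this comparison, *CLK1*, which was lower in KO cells, beside 7.88% of all genes called lower and 7.08% called higher. Without the libraries of low sum, 11 were higher and 10 lower, beside 15.2% and 14.6% of all genes. *SRSF4*, *SRSF6*, *TRA2A*, *CLK4*, *HNRNPL*, *RBM5* and *MBNL1* then no longer passed, while *HNRNPK*, *RBM3* and *RBM39* passed as higher.

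**Figure D2:**
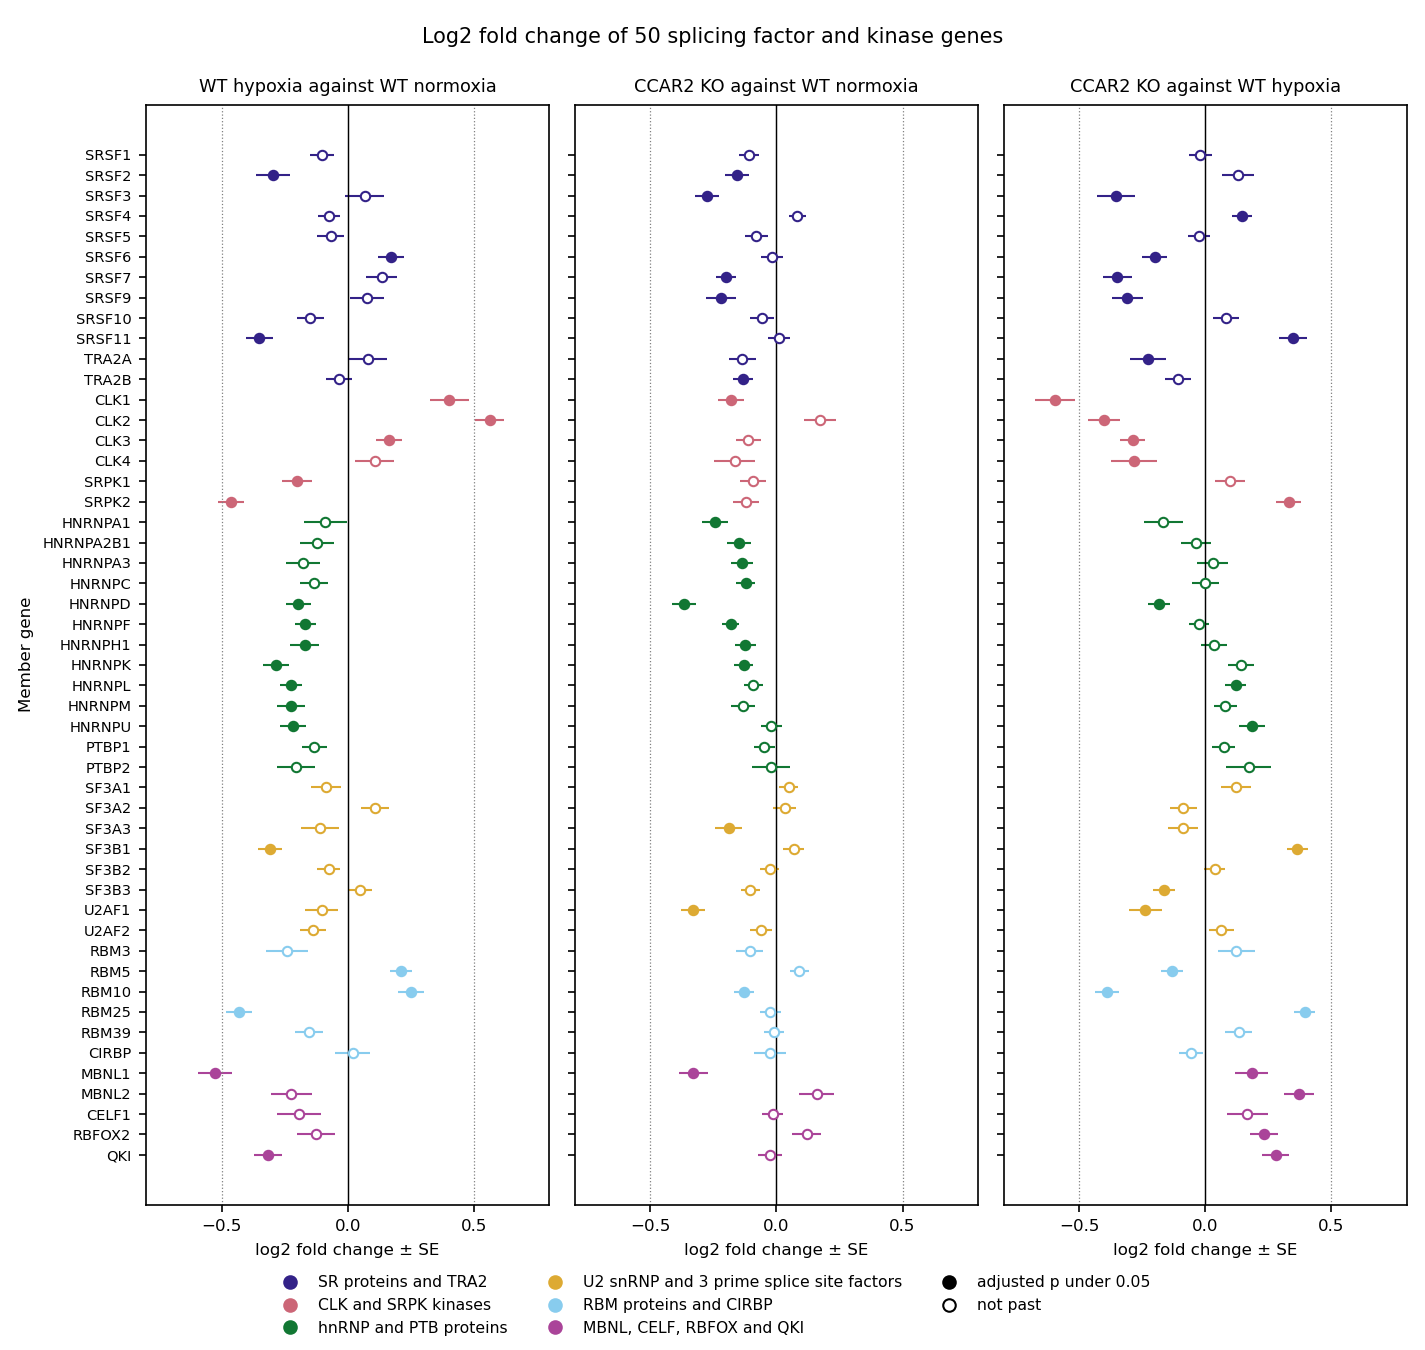
Log2 fold change of each of the 50 genes (horizontal axis, bars are SE) for WT hypoxia against WT normoxia, *CCAR2* KO against WT normoxia, and *CCAR2* KO against WT hypoxia, with 4 libraries in each group. Filled points passed an adjusted p under 0.05 and dotted lines mark a log2 fold change of 0.5 in either direction. The 13 hnRNP and PTB genes lie left of 0 in the first pair of panels, and the CLK genes lie right of 0 in the first panel and left of 0 in the last.

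The kinases of SR proteins split by subfamily in hypoxia: *CLK1*, *CLK2* and *CLK3* rose and *SRPK1* and *SRPK2* fell. Of the 6 kinase genes 50% thus rose and 33.3% fell, beside 11.6% and 12% of all genes. Of the abundant genes 13.8% rose and 22.4% fell. CLK kinases act on SR proteins inside the nucleus, and SRPK kinases mainly in the cytoplasm, where phosphorylation lets SR proteins be imported. Sequences upstream of *CLK1*, *CLK2* and *CLK4* are shown to set the 2 CLK genes of larger rise beside the one that did not pass the test. They are RefSeq bases on GRCh38.p14, 5 prime to 3 prime on the strand of the gene, before its most upstream RefSeq start and without bases in GENCODE exons. The GENCODE gene models of *CLK2* and *CLK4* begin further upstream, so these stretches lie inside them. Capitals mark ACGTG and GCGTG on either strand, the core letters that hypoxia-inducible factors are known to bind.
CLK1 chr2:200864745-200864908 (- strand): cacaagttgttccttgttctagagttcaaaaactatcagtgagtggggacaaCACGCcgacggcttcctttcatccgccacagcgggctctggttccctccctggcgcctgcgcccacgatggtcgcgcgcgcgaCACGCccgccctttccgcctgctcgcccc
CLK2 chr1:155273517-155273754 (- strand): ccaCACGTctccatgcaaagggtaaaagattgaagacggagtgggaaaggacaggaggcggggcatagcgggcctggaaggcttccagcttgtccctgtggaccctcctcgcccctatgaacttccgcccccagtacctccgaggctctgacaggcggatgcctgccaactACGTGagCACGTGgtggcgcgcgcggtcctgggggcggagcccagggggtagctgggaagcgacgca
CLK4 chr5:178627115-178627300 (- strand): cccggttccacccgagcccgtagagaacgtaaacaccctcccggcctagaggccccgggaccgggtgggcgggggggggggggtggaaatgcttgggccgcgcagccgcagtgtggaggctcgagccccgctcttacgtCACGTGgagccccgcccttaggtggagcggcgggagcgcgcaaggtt

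These letters occurred 4 times in the *CLK2* stretch of 238 bases, which counts each strand of the palindrome CACGTG. They occurred 2 times each in the shorter stretches of *CLK1* (164 bases) and *CLK4* (186 bases). *CLK3* is not shown. Its stretch of 155 bases, which also lies inside the gene model, held these letters 0 times. Over the 250 bases before RefSeq starts, 35 of the 43 members with a window in the table held a match at 1 start or more (81.4%), all 4 CLK genes among them, beside 47.41% of 27305 genes. The 27305 genes were not limited to expressed ones. Neither the number of starts nor base composition was matched, so these shares cannot show an excess of matches. A match describes the letters of the window and does not show a binding site. The full octamer TGACGTCA of the cAMP response was in the same stretches of 0 of the 43 members and 2.03% of genes.

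*CLK2* was the only member called higher in hypoxia. It stood at 18.2, 17.7, 19.5 and 18.5 CPM in the 4 WT normoxia libraries and at 26.0, 27.5, 28.8 and 27.6 CPM in hypoxia. The groups were far apart, and *CLK2* was 1.48-fold higher in hypoxia (log2 fold change 0.56 ± 0.056 SE, adjusted p = 9.15e-05). In KO cells the values were 19.5, 21.0, 22.6 and 20.3 CPM, with a log2 fold change of 0.17 ± 0.063 SE, adjusted p = 0.0561, and KO cells were lower than hypoxic cells (-0.40 ± 0.063 SE, adjusted p = 0.000457). The KO value passed in 7 of 19 alternatives, among them DESeq2 (0.17, adjusted p = 0.0299), upper-quartile normalization, a replicate block, a single fit of the 12 libraries, and the fit without KO replicate 1 (0.20). With the GC trend removed, *CLK2* was 0.49 in hypoxia and *CLK1*, at 0.59, was the member called higher.

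*CLK1*, whose own transcript is known to be held in the nucleus with introns retained, moved in opposite directions. It stood at 34.1, 33.6, 33.3 and 33.0 CPM in WT normoxia, at 44.4, 51.9, 39.9 and 42.0 CPM in hypoxia and at 31.9, 29.2, 29.2 and 27.9 CPM in KO cells. The 4 normoxic libraries were tightly grouped, every hypoxic library was above them and every KO library below. Its log2 fold change was 0.40 ± 0.077 SE, adjusted p = 0.00357 in hypoxia and -0.18 ± 0.052 SE, adjusted p = 0.0190 in KO cells. KO cells were 0.662-fold the level of hypoxic cells (-0.60 ± 0.080 SE, adjusted p = 0.000164). Without the libraries of low sum, *CLK1* was 0.28 in hypoxia and -0.47 between KO and hypoxia, which passed the test but was no longer called. The decrease in KO cells passed in 16 of 19 alternatives and did not with all 12 libraries in one fit (-0.18, adjusted p = 0.0798), without KO replicate 4 (-0.16) or with a trend on GC content removed (-0.12, adjusted p = 0.0565).

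*CLK3* rose in hypoxia with a log2 fold change of 0.16 ± 0.053 SE, adjusted p = 0.0444, a result that passed in 11 of 19 alternatives and was lost with most single libraries left out, and *CLK4* had 0.11 ± 0.077 SE, adjusted p = 0.367. All 4 CLK genes were lower in KO cells than in hypoxic cells past the test, with log2 fold changes from -0.60 to -0.28, and that of *CLK4* passed in 12 of 19 alternatives. Of all genes 17.8% were lower in that comparison, and of the abundant ones 24.5%. In KO cells against WT normoxia *CLK3* had -0.11 (adjusted p = 0.131) and *CLK4* had -0.17 (adjusted p = 0.152).

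*SRPK2* fell in hypoxia to 0.726-fold. It stood at 54.8, 48.9, 49.8 and 49.0 CPM in WT normoxia and at 37.4, 35.6, 37.6 and 37.3 CPM in hypoxia. The groups did not overlap, and the spread was smallest in hypoxia (log2 fold change -0.46 ± 0.052 SE, adjusted p = 0.000207). The KO libraries, at 47.6, 48.7, 45.8 and 44.3 CPM, were all slightly under the normoxic ones but did not pass the test (-0.12 ± 0.051 SE, adjusted p = 0.0963), and they were higher than the hypoxic ones (0.33 ± 0.049 SE, adjusted p = 0.000346). *SRPK1*, the more abundant of the pair, fell by a smaller amount in hypoxia (-0.20 ± 0.058 SE, adjusted p = 0.0276, past the test in 11 of 19 alternatives) and had -0.09 in KO cells (adjusted p = 0.200).

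**Figure D3:**
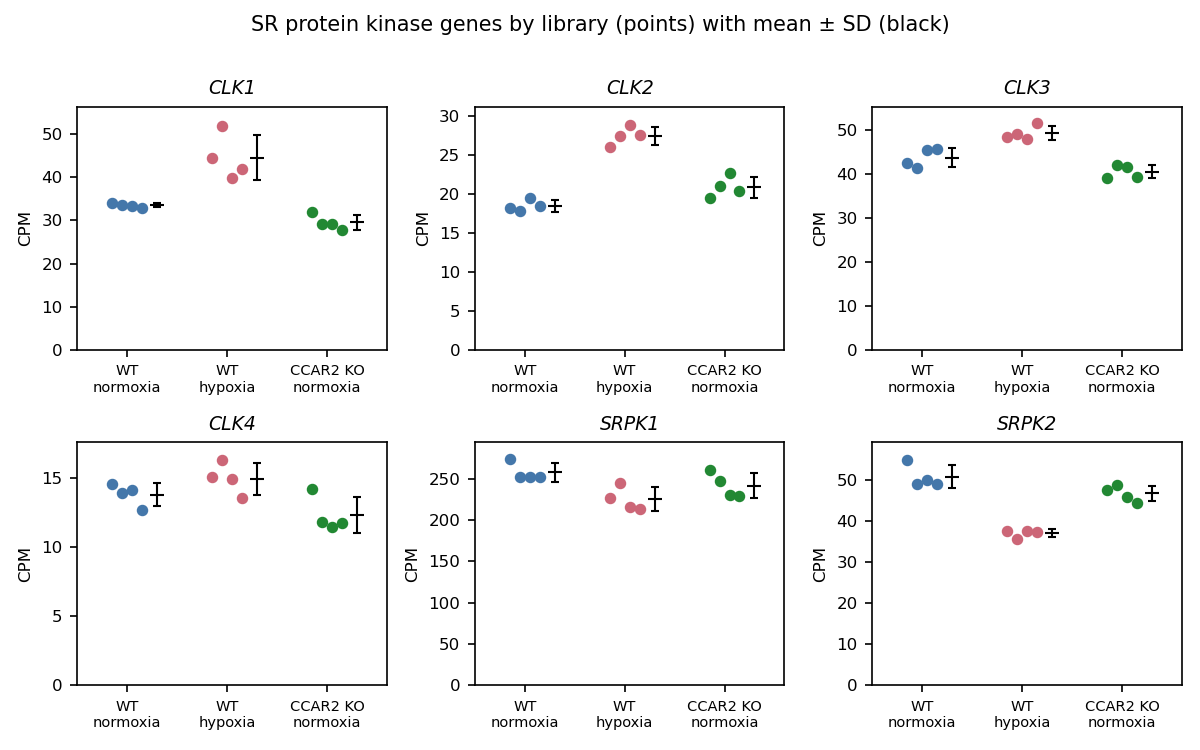
CPM of the 4 CLK and 2 SRPK genes (vertical axes, from 0) in each library of WT normoxia, WT hypoxia and *CCAR2* KO normoxia. Points are libraries, and the black mark and bar beside each group are its mean and SD (n = 4). Hypoxic libraries lie above the normoxic ones for *CLK1*, *CLK2* and *CLK3* and below them for *SRPK1* and *SRPK2*.

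Of the 12 SR and TRA2 genes, 2 fell and 1 rose in hypoxia (16.7% and 8.33%, beside 12% and 11.6% of all genes) and 5 fell in KO cells (41.7%, beside 15.4% of all genes and 26.7% of the abundant ones). *SRSF2*, which binds exonic enhancers and also helps release paused polymerase, was the SR gene that fell in both. It stood at 358, 399.5, 389 and 369 CPM in WT normoxia, at 301, 345, 311 and 283 CPM in hypoxia and at 349, 339, 321 and 350.1 CPM in KO cells. Both other groups lay wholly under WT normoxia, hypoxia with a log2 fold change of -0.30 ± 0.068 SE, adjusted p = 0.00892, and KO cells with -0.16 ± 0.047 SE, adjusted p = 0.0242. The KO value passed in 15 of 19 alternatives and did not with all 12 libraries in one fit (-0.15, adjusted p = 0.0722) or when WT replicate 2 or 3 or KO replicate 3 was left out, and KO cells differed from hypoxic cells past the test only without hypoxia replicate 2 (log2 fold change 0.18 in place of 0.13). *SRSF2* shares 36.7% of its exon bases with *MFSD11* on the opposite strand, and the strand setting of the counting is not given in the sources used here.

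*SRSF11*, an SR-related protein linked to the 3 prime splice site, fell in hypoxia alone among the comparisons with normoxia. It stood at 163, 154, 153 and 149.6 CPM in WT normoxia, 132, 119, 122 and 116 CPM in hypoxia and 166, 158, 151 and 148 CPM in KO cells. Hypoxic values were all lower (-0.35 ± 0.055 SE, adjusted p = 0.00123), and the KO values lay on the normoxic ones (0.01 ± 0.045 SE, adjusted p = 0.896). The difference between KO and hypoxia was 0.35 ± 0.055 SE, adjusted p = 0.000498. *SRSF6* rose in hypoxia (0.17 ± 0.052 SE, adjusted p = 0.0340), a result that passed in 11 of 19 alternative analyses.

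*SRSF3*, *SRSF7* and *SRSF9* fell in KO cells and had positive values in hypoxia. *SRSF3*, the smallest SR protein with a part in mRNA export and 3 prime end processing, stood at 323, 338, 338 and 304 CPM in WT normoxia, 329, 403, 321 and 319.9 CPM in hypoxia and 285, 273, 254 and 264 CPM in KO cells. Every KO library was under every other library (-0.28 ± 0.048 SE, adjusted p = 0.000951 against WT normoxia), while hypoxia replicate 2 stood alone above the rest and the hypoxic log2 fold change was 0.07 ± 0.078 SE, adjusted p = 0.597. Without that library the hypoxic value was -0.02.

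*SRSF7*, which shares the export role, was 134, 145, 144 and 137 CPM in WT normoxia, 151, 172, 146 and 149 CPM in hypoxia and 126, 122, 119.6 and 119 CPM in KO cells. The 3 groups did not overlap, and the decrease in KO cells was -0.20 ± 0.039 SE, adjusted p = 0.00198, while in hypoxia the value was 0.14 ± 0.062 SE, adjusted p = 0.142. *SRSF9* fell in KO cells (-0.22 ± 0.061 SE, adjusted p = 0.0154), with WT normoxia at 211, 245, 253 and 233 CPM and KO cells at 185, 203, 206 and 214 CPM, where WT replicate 1 overlapped the KO range. In hypoxia *SRSF9* was at 241, 231, 267 and 259.8 CPM (0.08 ± 0.068 SE, adjusted p = 0.475). It shares 46.2% of its exon bases with *GATC* on the other strand. Against hypoxic cells KO cells were lower for *SRSF3* (-0.35 ± 0.075 SE, adjusted p = 0.00345), *SRSF7* (-0.35 ± 0.056 SE, adjusted p = 0.000595) and *SRSF9* (-0.31 ± 0.062 SE, adjusted p = 0.00237). *TRA2B*, a partner of SR proteins at purine-rich enhancers, also fell in KO cells (-0.13 ± 0.040 SE, adjusted p = 0.0257, past the test in 15 of 19 alternatives).

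The 13 hnRNP and PTB genes all had negative log2 fold changes in both comparisons with WT normoxia. In hypoxia 7 fell (53.8%, beside 12% of all genes and 22.4% of the abundant ones) and 6 did not pass the test, with log2 fold changes from -0.28 to -0.09. In KO cells 8 fell (61.5%, beside 15.4% and 26.7%) and 5 did not pass, with values from -0.37 to -0.02. *HNRNPD*, *HNRNPF*, *HNRNPH1* and *HNRNPK* fell in both. The counts moved with the setting. With upper-quartile normalization *HNRNPA1*, *HNRNPD*, *HNRNPF* and *HNRNPK* alone of the family fell in KO cells. Without KO replicate 3 *HNRNPA1*, *HNRNPD* and *HNRNPF* alone did, and with DESeq2 *HNRNPM* fell beside the 8. In hypoxia *HNRNPK*, *HNRNPL*, *HNRNPM* and *HNRNPU* alone fell with upper-quartile normalization, and *HNRNPA3*, *PTBP1* and *PTBP2* joined the 7 with DESeq2. *HNRNPH1* was near the threshold, at -0.17 ± 0.056 SE, adjusted p = 0.0490 in hypoxia, where the groups overlapped and it passed in 8 of 19 alternatives and with 1 of the 8 libraries left out, and at -0.12 ± 0.041 SE, adjusted p = 0.0384 in KO cells, where it passed in 11 of 19. Over all 19 alternatives the sign stayed negative in 10 of the 13 in hypoxia, with *HNRNPA2B1*, *HNRNPC* and *HNRNPH1* turning in at least 1, and in 11 of the 13 in KO cells, with *HNRNPU* and *PTBP2* turning.

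*HNRNPD*, also known as AUF1 for its binding to AU-rich elements of unstable mRNAs, had the largest decrease of the 50 genes in KO cells. It stood at 503, 547, 564 and 517 CPM in WT normoxia, 462, 473, 474 and 463 CPM in hypoxia and 400.5, 423, 403 and 427 CPM in KO cells. The 3 groups formed 3 separate ranges, with KO cells lowest (-0.37 ± 0.047 SE, adjusted p = 9.19e-05) and hypoxia between (-0.20 ± 0.051 SE, adjusted p = 0.0172). The direct difference was -0.18 ± 0.044 SE, adjusted p = 0.00723. The decrease in hypoxia passed in 12 of 19 alternatives and was not found once a trend on GC content was removed (-0.01, adjusted p = 0.941), while that in KO cells was -0.31.

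*HNRNPA1* fell in KO cells, from 1327, 1385, 1419 and 1211 CPM to 1121, 1139.7, 1095 and 1153 CPM (-0.24 ± 0.052 SE, adjusted p = 0.00344). In hypoxia it was 1137, 1487, 1186 and 1238 CPM, where replicate 2 was the highest of all 12 libraries (-0.09 ± 0.085 SE, adjusted p = 0.511). Without that library the hypoxic log2 fold change was -0.18 (adjusted p = 0.0380). The table lists 75 pseudogenes of *HNRNPA1*, whose values came to 5.10% of its own, so reads may be divided among them.

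*HNRNPK*, which binds C-rich RNA, stood at 850.3, 837, 845 and 834 CPM in WT normoxia, 699, 743, 659.7 and 681 CPM in hypoxia and 779, 783, 739 and 776 CPM in KO cells. The normoxic libraries were tightly grouped, KO cells were under them (-0.13 ± 0.039 SE, adjusted p = 0.0231) and hypoxic cells lower again (-0.28 ± 0.052 SE, adjusted p = 0.00296), with a difference between KO and hypoxia of 0.14 ± 0.051 SE, adjusted p = 0.0513. That difference passed in 9 of 19 alternatives, among them DESeq2 (0.15, adjusted p = 0.0155), limma-voom and the fits without the libraries of low sum (0.18), without hypoxia replicate 2 (0.17) and without KO replicate 3 (0.16). The decrease in KO cells did not pass without KO replicate 3 (-0.11). *HNRNPF*, which binds G-rich runs, was 344, 337, 341 and 335 CPM in WT normoxia, 302, 305, 300.4 and 307 CPM in hypoxia and 305, 299, 297 and 296 CPM in KO cells. It fell by about the same amount in both (-0.17 ± 0.042 SE, adjusted p = 0.0139, and -0.18 ± 0.034 SE, adjusted p = 0.00150), and the difference between KO and hypoxia was -0.03 ± 0.040 SE, adjusted p = 0.677. With upper-quartile normalization the hypoxic decrease was -0.12 (adjusted p = 0.0661). *PTBP1*, the polypyrimidine tract binding repressor, had -0.13 in hypoxia (adjusted p = 0.0753) and -0.05 in KO cells (adjusted p = 0.424).

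Of the 8 genes of the U2 snRNP and the 3 prime splice site, 1 fell in hypoxia (12.5%, beside 12% of all genes) and 2 others fell in KO cells (25%, beside 15.4% of all genes and 26.7% of the abundant ones). *SF3B1*, the U2 snRNP subunit that contacts the branch point, was 261, 240.1, 238 and 238 CPM in WT normoxia and 198, 201, 196 and 198 CPM in hypoxia. The hypoxic libraries were close to each other and all under the normoxic ones (-0.31 ± 0.047 SE, adjusted p = 0.00113). In KO cells the values were 266, 254, 252 and 251 CPM (0.07 ± 0.041 SE, adjusted p = 0.257), and KO cells were higher than hypoxic cells (0.36 ± 0.041 SE, adjusted p = 4.68e-05).

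*U2AF1*, the small U2AF subunit that reads the AG at the end of an intron, fell in KO cells. It stood at 60.6, 64.1, 67.1 and 61.2 CPM in WT normoxia, 52.6, 64.6, 58.2 and 61.4 CPM in hypoxia and 49.6, 47.9, 51.7 and 52.2 CPM in KO cells. The KO libraries were all under the others (-0.33 ± 0.047 SE, adjusted p = 0.000202), and the hypoxic libraries overlapped the normoxic ones (-0.10 ± 0.066 SE, adjusted p = 0.303). The difference between KO and hypoxic cells was -0.24 ± 0.065 SE, adjusted p = 0.0143 and did not pass without KO replicate 2 (-0.21). *U2AF1* has a near-identical copy in the annotation, *U2AF1L5*, and it took between 48.0% and 49.9% of the sum of both in every library, so the values of the pair are uncertain one by one. With the pair added, the log2 fold change in KO cells was -0.34. The large subunit *U2AF2* had -0.14 in hypoxia (adjusted p = 0.0730) and -0.06 in KO cells (adjusted p = 0.327).

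*SF3A3*, a subunit of SF3A, fell in KO cells from 111, 113, 118 and 96.3 CPM to 93.1, 96.9, 97.1 and 97.7 CPM (-0.19 ± 0.055 SE, adjusted p = 0.0200). WT replicate 4 lay within the KO range, and the test was lost without WT replicate 3 or without KO replicate 1. In hypoxia *SF3A3* was at 94.4, 114, 96.8 and 103 CPM (-0.11 ± 0.075 SE, adjusted p = 0.331), and KO differed from hypoxia by -0.09 ± 0.060 SE, adjusted p = 0.286. None of the other 5 genes passed the test against WT normoxia, and their log2 fold changes lay between -0.14 and 0.11.

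The RBM proteins moved apart from each other in hypoxia. *RBM25*, which binds an exonic enhancer of *BCL2L1* and associates with the U1 snRNP, was 181, 171, 174 and 159.5 CPM in WT normoxia, 130.3, 126, 131 and 123 CPM in hypoxia and 170.3, 167, 165 and 172 CPM in KO cells. It fell to 0.742-fold in hypoxia (-0.43 ± 0.051 SE, adjusted p = 0.000262), while KO cells overlapped WT normoxia (-0.02 ± 0.042 SE, adjusted p = 0.712) and were higher than hypoxic cells (0.39 ± 0.042 SE, adjusted p = 2.91e-05).

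*RBM10*, which promotes exon skipping, rose in hypoxia and fell in KO cells. It stood at 62.2, 59.9, 60.3 and 64.5 CPM in WT normoxia, 70.4, 71.6, 77.0 and 76.5 CPM in hypoxia and 55.2, 56.2, 57.0 and 57.7 CPM in KO cells. The 3 groups did not overlap (0.25 ± 0.051 SE, adjusted p = 0.00501 in hypoxia, -0.13 ± 0.041 SE, adjusted p = 0.0310 in KO cells, and -0.39 ± 0.048 SE, adjusted p = 8.23e-05 between KO and hypoxia). The decrease in KO cells passed in 11 of 19 alternatives and was lost without WT replicate 4 or without any 1 of the 4 KO libraries, and the rise in hypoxia was 0.09 (adjusted p = 0.204) with the GC trend removed. *RBM10* shares 16.4% of its exon bases with *NDUFB11* on the opposite strand. Its relative *RBM5* also rose in hypoxia (0.21 ± 0.043 SE, adjusted p = 0.00526) and had 0.09 in KO cells (adjusted p = 0.0849). The cold-inducible pair *RBM3* and *CIRBP* had -0.24 (adjusted p = 0.0583) and 0.02 (adjusted p = 0.883) in hypoxia.

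All 5 genes of the MBNL, CELF, RBFOX and QKI families had negative log2 fold changes in hypoxia, as in all 19 alternatives. Of these, 2 fell (40%, beside 12% of all genes and 22.4% of the abundant ones). *MBNL1*, whose protein favours the adult pattern of many exons, had the largest decrease of the 50 genes in hypoxia. It stood at 389.7, 343, 343 and 351 CPM in WT normoxia, 272, 240.1, 255 and 229.6 CPM in hypoxia and 309.7, 286, 267 and 273 CPM in KO cells. Every hypoxic and every KO library was under every normoxic one, and *MBNL1* fell to 0.695-fold in hypoxia (-0.53 ± 0.067 SE, adjusted p = 0.000402) and to 0.796-fold in KO cells (-0.33 ± 0.057 SE, adjusted p = 0.000845). The difference between KO and hypoxia was 0.18 ± 0.065 SE, adjusted p = 0.0472, and it passed in 9 of 19 alternatives. WT replicate 1 was the highest library, and without it, or without hypoxia replicate 4, the hypoxic decrease passed the test but was no longer called. *MBNL1* shares 11.4% of its exon bases with *MBNL1-AS1* on the opposite strand.

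*QKI*, which binds introns through its STAR domain and also promotes circular RNAs, fell in hypoxia, from 116, 109, 102 and 108 CPM to 92.3, 84.5, 90.4 and 84.6 CPM (-0.32 ± 0.055 SE, adjusted p = 0.00229). In KO cells it was at 114, 106, 102 and 105 CPM (-0.03 ± 0.048 SE, adjusted p = 0.735), which was higher than in hypoxic cells (0.28 ± 0.052 SE, adjusted p = 0.00146). *MBNL2* was 37.7, 31.9, 29.6 and 34.1 CPM in WT normoxia, 31.0, 27.8, 29.5 and 26.5 CPM in hypoxia and 38.1, 38.2, 35.4 and 37.1 CPM in KO cells. Neither difference from WT normoxia passed the test (-0.22 ± 0.080 SE, adjusted p = 0.0683 and 0.16 ± 0.069 SE, adjusted p = 0.108), but KO and hypoxic cells were apart (0.37 ± 0.060 SE, adjusted p = 0.000589). The hypoxic value passed in 4 of 19 alternatives, with DESeq2, a replicate block, a single fit of the 12 libraries, and without WT replicate 3 (-0.28). The KO value passed in 3, with a replicate block, the GC trend removed (0.21), and without WT replicate 1 (0.22). In the direct comparison 4 of these 5 genes were higher in KO cells (80%, beside 17.1% of all genes and 26.2% of the abundant ones). The exception was *CELF1*, with 0.17 (adjusted p = 0.144).

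**Figure D4:**
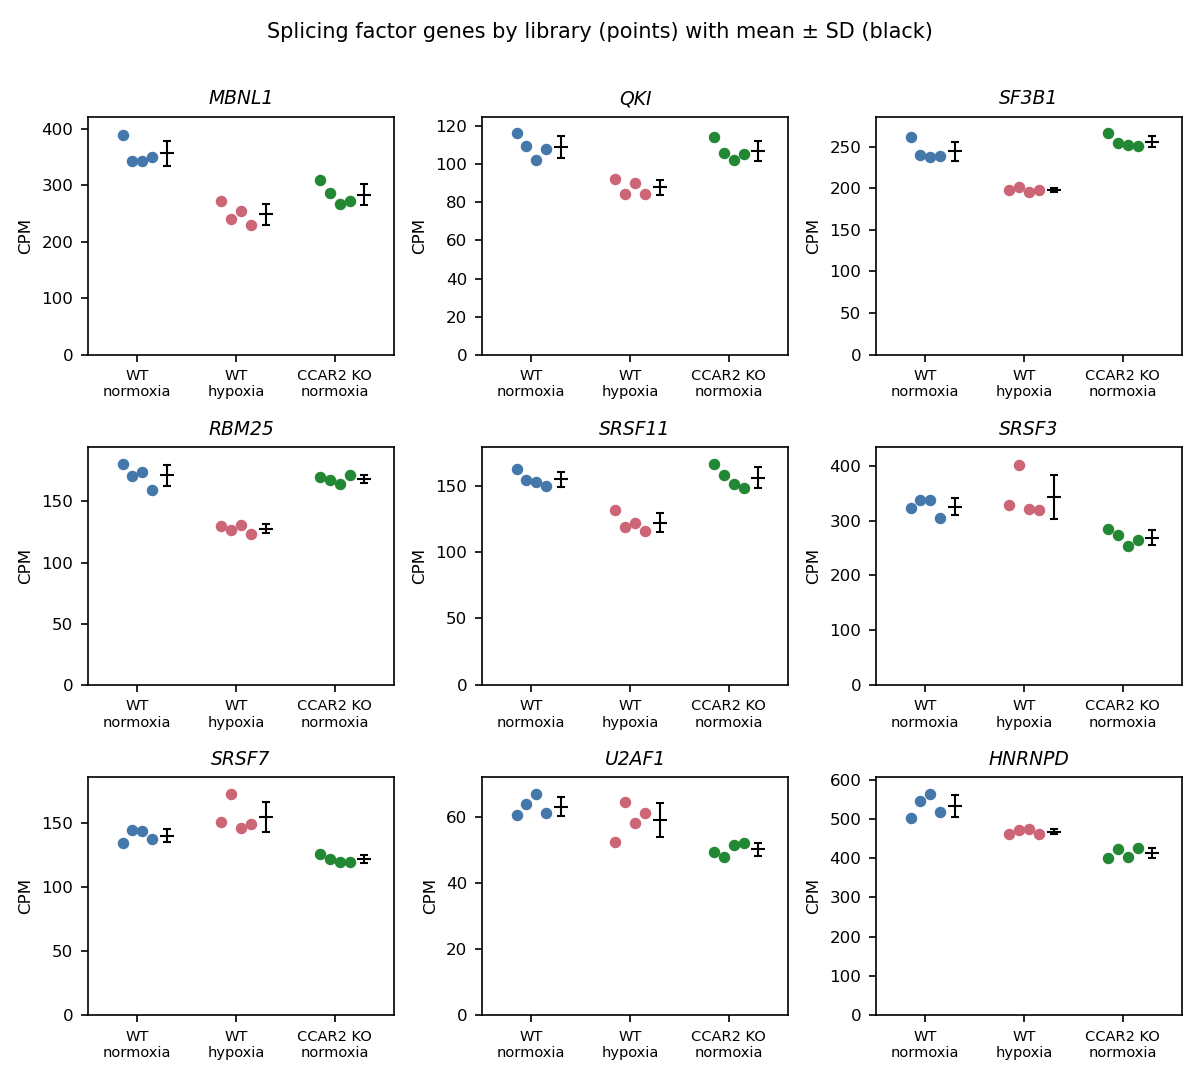
CPM of 9 splicing factor genes (vertical axes, from 0) in each library of WT normoxia, WT hypoxia and *CCAR2* KO normoxia. Points are libraries, and the black mark and bar beside each group are its mean and SD (n = 4). Hypoxic libraries are the lowest for *QKI*, *SF3B1*, *RBM25* and *SRSF11*, and KO libraries for *SRSF3*, *SRSF7*, *U2AF1* and *HNRNPD*, while for *MBNL1* both lie under WT normoxia and overlap each other.

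GC content moved with the fold changes in hypoxia. Over 21329 genes, which are not independent replicates, the Spearman correlation of log2 fold change with transcript GC content was 0.33 in hypoxia and over the 50 members 0.22. In KO cells it was 0.08 over 20975 genes. With the trend removed, the median of the members in hypoxia was -0.03 in place of -0.13, *MBNL1* was -0.39, *RBM25* -0.28, *SF3B1* -0.19, *SRSF11* -0.17 and *QKI* -0.16, all still past the test. In that fit 14 members fell and 8 rose, in place of 15 and 6, beside 11.7% and 9.72% of all genes. *HNRNPD*, *HNRNPH1*, *HNRNPU* and *RBM10* no longer passed, while *SRSF3*, *SRSF7* and *CLK4* rose and *PTBP1* and *U2AF2* fell. The correlation with GC content was then -0.0026 over all genes and -0.32 over the members. In KO cells 17 members fell with the trend removed, 13 of them among the 18, and 3 rose, beside 18.2% and 15.9% of all genes. *CLK1*, *HNRNPA2B1*, *HNRNPA3*, *HNRNPC* and *HNRNPH1* no longer passed there. *HNRNPL*, *HNRNPM*, *SF3B3* and *U2AF2* fell, and *SF3B1*, *RBM5* and *MBNL2* rose. Directly compared, 12 were higher and 17 lower in KO cells than in hypoxia, and *SRSF4*, *HNRNPU* and *MBNL1* no longer passed. The part of GC content in these values was not tested.

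The summed level of a family gives its weight in the library. The 50 genes came to 13687 to 14487 CPM in the libraries of WT normoxia, 12609 to 13590.4 CPM in hypoxia and 12767 to 13153 CPM in KO cells. The hnRNP and PTB genes made up most of this, with 7396 to 7924, 6665 to 7423 and 6789 to 7053 CPM in the same order. Their KO libraries all lay under the WT normoxia libraries, and 1 of the 4 hypoxic libraries overlapped them. For the MBNL, CELF, RBFOX and QKI families the sums were 735 to 830.3, 557 to 661 and 679 to 747 CPM. Sums weigh abundant genes most and were not tested.

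**Figure D5:**
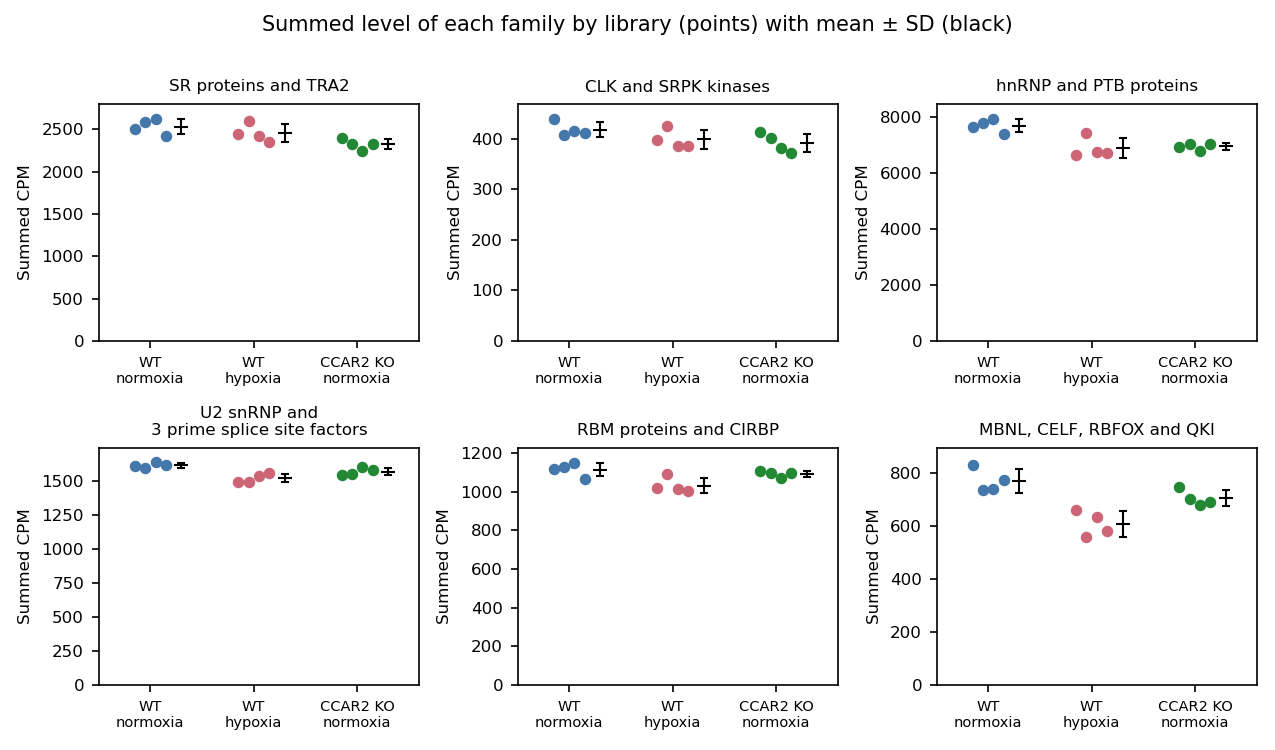
Summed CPM of the genes of each of the 6 families (vertical axes, from 0) in each library of WT normoxia, WT hypoxia and *CCAR2* KO normoxia. Points are libraries, and the black mark and bar beside each group are its mean and SD (n = 4). The hypoxic libraries of the MBNL, CELF, RBFOX and QKI families all lie under the normoxic and KO libraries.

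Other genes of the splicing machinery were described from lists. Of 47 further spliceosome components, 26 fell (55.3%) and 1 rose in KO cells, beside 15.4% and 14.9% of all genes. In hypoxia 9 fell (19.1%) and 1 rose, beside 12% and 11.6% of all genes. Among the abundant genes 26.7% fell in KO cells and 22.4% in hypoxia, so the hypoxic share of the 47 was near that. The median log2 fold change of the 47 was -0.17 in KO cells and -0.08 in hypoxia. The largest decreases in KO cells were those of *TXNL4A*, a U5 snRNP protein (-0.54 ± 0.069 SE, adjusted p = 9.04e-05), *PRPF38A* (-0.45 ± 0.053 SE, adjusted p = 4.98e-05), and the Sm proteins *SNRPD2* (-0.42 ± 0.058 SE, adjusted p = 0.000164) and *SNRPG* (-0.41 ± 0.079 SE, adjusted p = 0.00169). Directly compared, 16 of the 47 were lower (34.0%) and 5 higher (10.6%) in KO cells than in hypoxia. Of all genes 17.8% were lower and 17.1% higher, and of the abundant ones 24.5% and 26.2%.

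Of 18 tested SR-related proteins that are not among the 50, 7 fell (38.9%) and none rose by edgeR in hypoxia. Of all genes 12% fell there and 11.6% rose, and of the abundant ones 22.4% and 13.8%. Before adjustment 11 of the 18 were lower and 1 higher at a p under 0.05. In KO cells 2 fell (11.1%) and 4 rose (22.2%), beside 26.7% and 19.7% of the abundant genes. In the direct comparison by edgeR 10 were higher (55.6%) and 0 lower in KO cells than in hypoxic cells, and before adjustment 11 and 0. Of the abundant genes 26.2% were higher and 24.5% lower in that comparison. *SON*, a large protein of nuclear speckles, fell in hypoxia (-0.35 ± 0.075 SE, adjusted p = 0.00703) and rose in KO cells (0.16 ± 0.051 SE, adjusted p = 0.0304), as did *DYRK1A*, a kinase that also acts on splicing factors (-0.36 ± 0.060 SE, adjusted p = 0.00183 and 0.12 ± 0.039 SE, adjusted p = 0.0302).

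Of 33 tested further hnRNP and related proteins, 10 fell in hypoxia (30.3%, beside 12% of all genes and 22.4% of the abundant ones). In KO cells 17 fell (51.5%, beside 15.4% and 26.7%) and 3 rose (9.09%, beside 14.9% and 19.7%). *PTBP3*, a paralogue of *PTBP1*, fell in hypoxia (-0.52 ± 0.066 SE, adjusted p = 0.000429) and by less in KO cells (-0.23 ± 0.052 SE, adjusted p = 0.00502). *KHDRBS1*, which encodes SAM68, fell in KO cells (-0.39 ± 0.035 SE, adjusted p = 5.54e-06). *ESRP1*, the epithelial splicing regulator, was low in every group, at 1.58 ± 0.101 CPM in WT normoxia, 1.08 ± 0.232 CPM in hypoxia and 2.59 ± 0.292 CPM in KO cells, and was called lower in hypoxia (-0.56 ± 0.17 SE, adjusted p = 0.0371) and higher in KO cells (0.71 ± 0.13 SE, adjusted p = 0.00113). *MBNL3*, a relative of *MBNL1*, had -1.20 ± 0.46 SE, adjusted p = 0.0862 in hypoxia, where replicate 2 stood at 0.563 CPM and the other 3 libraries at 4.98, 5.35 and 5.25 CPM, and it rose in KO cells (0.39 ± 0.12 SE, adjusted p = 0.0247). Of 15 genes of nonsense-mediated decay and the exon junction complex, 3 fell in hypoxia, and 3 fell and 1 rose in KO cells. The 20% that fell in each lay above the shares of all genes, 12% and 15.4%. It lay under the shares of the abundant genes, 22.4% and 26.7%. The 1 that rose was 6.67%, beside 14.9% of all genes and 19.7% of the abundant ones. *MAGOH*, a core subunit of the exon junction complex, fell in both (-0.25 ± 0.062 SE, adjusted p = 0.0121 and -0.43 ± 0.060 SE, adjusted p = 0.000169).

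All these values are sums over the isoforms of a gene, and in bulk RNA a lower level in every cell and fewer cells with the transcript cannot be told apart. Many splicing factors are known to regulate their own transcripts through exons that lead to decay, and neither the use of such exons nor the splicing of any target can be read from values per gene.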

How the data were processed

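Per the labels, total RNA of MDA-MB-231 cells was sequenced in 12 libraries. The submitters' processing notes name HISAT2, SAMtools and featureCounts, while the methods name Hisat2 and StringTie for alignment and quantification, another extraction kit and another library kit, and fewer replicates than the 4 libraries per group. The genome build, annotation and strand setting are not given in the sources used here. The deposited values are estimated counts per gene (expected counts), whole numbers that the authors did not scale to library size, and their sums, between 68599412 and 213743693 per library, were not taken as numbers of reads. Replicates of a group differed with a chi-square of 13.6 to 97.9 times its degrees of freedom, and whether any pair is a duplicate cannot be told from it.

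All genes were fitted per comparison, on the 8 libraries concerned, with edgeR 4.0.16 in R 4.3.3 (TMM, filterByExpr, glmQLFit, glmQLFTest, Benjamini-Hochberg adjustment), with a threshold of 0.05 on the adjusted p and 0.5 on the log2 fold change. The methods of the study used DESeq2, which was run here (1.42.0) as an alternative, as were limma-voom (3.58.1), other normalizations and filters, values divided by 4, a replicate block and each library left out. Leaving out the 3 libraries of a sum under 100000000 and a lowess correction (span 0.3) for GC content were added after the data were seen. Single genes were also compared with an exact permutation test on log2 CPM with a prior count of 2.

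The 50 genes and the other lists were chosen with earlier results of these data known. Named were members called in any comparison, the 10 of largest log2 fold change past the adjusted p in each, 1 or 2 of each family by level, and up to 4 genes per other list and comparison. Other members named beside these (*SRSF6*, *TRA2B*, *CLK3*, *CLK4*, *SRPK1*, *HNRNPH1*, *PTBP1*, *RBM3*, *RBM5*, *CIRBP*, *U2AF2* and *CELF1*) complete a subfamily or a count and were named after their values were seen. Merged exon lengths and overlaps came from GENCODE on GRCh38, in which 58396 of the 60664 identifiers were found. Promoter windows of 300 bases (250 upstream) came from RefSeq on GRCh38.p14.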

Additional observations from a re-analysis of the deposited data

Results flagged for a closer look

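In 150 groups of 4 libraries (50 genes in 3 groups), the highest or lowest library was set against the others by Dixon's ratio, its gap to the nearest library divided by the range and compared with the 95% critical value. Chance passes about 1 in 20 groups, or 7.5 of 150, and 16 passed. Hypoxia replicate 2 stood apart in 5 of them: it was high for *SRSF3* (0.890), *HNRNPA2B1* (0.918), *HNRNPC* (0.905) and *RBM3* (0.839), and low for *SRPK2* (0.882). WT normoxia replicate 1 was high for *SRPK1* (0.970), *SRPK2* (0.844), *SF3B1* (0.897) and *MBNL1* (0.841). KO replicate 1 was high for *TRA2A* (0.879) and *CLK4* (0.881) and low for *HNRNPM* (0.871). The other ratios were 0.833 for *SRSF4*, high in WT normoxia replicate 3, 0.855 for *HNRNPH1*, low in WT normoxia replicate 4, 0.846 for *HNRNPK*, low in KO replicate 3, and 0.848 for *HNRNPL*, low in hypoxia replicate 1. What set these libraries apart was not tested.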

How the results depend on the processing

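Of 663 log2 fold changes of named genes under other settings, 621 kept their direction and their side of the threshold, and of 480 with a library left out 444 did. In all 19 alternatives, 12 members passed in hypoxia and 8 in KO cells. The shares of all genes that did so were not counted. For KO cells against WT normoxia, KO replicate 2 is the only library of low sum. The fit without it is therefore counted under both settings among the 19.

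The count of members called lower in hypoxia (1) was 0 with upper-quartile normalization and with the GC trend removed, and 0 to 1 with a library left out. Of all genes 1.43% were called lower in the main fit, and 0.882%, 1.18% and 1.07% to 1.76% in the same order. Those that fell in hypoxia (15) were 23 with DESeq2 and with all 12 libraries in one fit, and 11 to 23 with a library left out. Of all genes 12% fell in the main fit, 14.8% with DESeq2, 15.2% with all 12 libraries, and 8.17% to 16.2% with a library left out. Those that rose in KO cells (0) were 3 with upper-quartile normalization and with the GC trend removed, 1 with DESeq2, with at least 10 counts in every library, with all 12 libraries in one fit and with values divided by 4, and 0 to 1 with a library left out. Of all genes 14.9% rose in the main fit, 16.4% and 15.9% in the fits with 3, and 11.7% to 14.9% with a library left out. In the other fits named, 13.5% to 20% rose. Those that fell in KO cells (18) were 10 with all 12 libraries in one fit, and 10 to 20 with a library left out. Of all genes 15.4% fell in the main fit, and 13.3% and 12.6% to 15.3% in the same order. The count called lower in KO cells against hypoxia (1) was 0 without the libraries of low sum, beside 7.21% of all genes in that fit and 7.88% in the main fit. The cause of these differences was not tested.

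Of values that did not pass the test, *SRSF3* in hypoxia turned to -0.031 without the libraries of low sum and lay between -0.024 and 0.10 with a library left out. *SRSF11* in KO cells was -0.014 with no filter and between -0.025 and 0.031 with a library left out. *QKI* in KO cells was 0.0072 and *RBM25* 0.0094 with the GC trend removed, and *QKI* lay between -0.065 and 0.0028 with a library left out.

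Deviations of same-numbered libraries had correlations between -0.03 and 0.10. Whether the libraries were handled in pairs cannot be told from these values. With a replicate block, 3 members rose in KO cells, beside 16.1% of all genes. The estimated counts carry no read depth, so no counting interval is given.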
